A study of Homo sapiens with 9 samples.

Results

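The genes described are 8 neighbours on the short arm of chromosome 9, in and around band 9p24. They are JAK2, the PD-1 ligand genes CD274 and PDCD1LG2, and PLGRKT, RIC1, ERMP1, UHRF2 and KDM4C. They were taken by symbol, and each had 1 transcript cluster among the 20893 tested, which name 17687 genes in all. RNA came from the established Hodgkin lymphoma line L-1236 and was measured on human Clariom S arrays. The 9 arrays form 3 groups of 3. The control cells (v2, labelled wild type) carried the lentiviral Cas9 vector, and no guide to LTA is named for them. In clone g2_1 the vector carried a guide to exon 2 of LTA, the lymphotoxin alpha gene, and in clone g3_4 a guide to exon 4. Lymphotoxin alpha is a cytokine related to TNF that lymphocytes secrete. Each knockout genotype is thus 1 single-cell clone. The clones had been kept in medium that L-1236 cells had conditioned, and all cells then spent 72 h in normal medium. Whether the control is also a clone, or saw conditioned medium, is not stated, nor whether arrays of a group are separate cultures. The p-values therefore measure the spread between these arrays, which may be technical.

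JAK2 is a tyrosine kinase that sits on the tails of cytokine receptors and, once activated, phosphorylates STAT transcription factors. PD-L1, encoded by CD274, and PD-L2, encoded by PDCD1LG2, are surface proteins of the B7 family that bind PD-1 on T cells and dampen their response. The 3 genes lie close together, and gain of this stretch of chromosome 9 with high PD-1 ligand expression is a well-known feature of Hodgkin lymphoma. DNA copy number is not analysed here.

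All values are log2 signals after RMA, the authors' background correction, normalization and probe summary, so a difference of 1 is a doubling. Fold changes are knockout minus control on this scale, fitted with limma across all transcript clusters, and a gene passed at a Benjamini-Hochberg adjusted p under 0.05. LTA itself, the check of the labels, was at 11.58, 11.07 and 11.08 on the control arrays, at 7.97, 7.53 and 7.11 in g2_1 and at 6.94, 7.25 and 6.61 in g3_4. Array 1 of every group had an RNA integrity number of 10, and the remaining arrays had 9.5 to 9.6. The array medians were 6.15 to 6.19 in the knockout cells and 6.27 to 6.29 in control cells, and the median fold change of all transcript clusters was 0.11 higher once arrays were centred on their medians. Of the Hodgkin cell markers, 11 were measured. Their mean level was 8.0 to 8.33 on the control arrays, 7.95 to 8.03 in g2_1 and 7.9 to 7.91 in g3_4. In both clones TNFRSF8 (0.74) and CD83 (0.54) rose, while CCL22 (-1.18) and PAX5 (-0.81) fell. The mean level of 7 T cell markers was 5.59 to 5.85 on the control arrays and 5.91 to 6.05 over the knockout arrays. Of these, CD2 rose in both clones (1.55), and the other 6, CD3D, CD3E and CD3G among them, had averaged fold changes from -0.16 to 0.12 and did not pass. The mean level of 6 B cell markers was 6.85 to 6.99 on the control arrays and 6.6 to 6.76 over the knockout arrays. POU2AF1 (-1.52) and PAX5 (-0.81) fell and BLK (0.89) rose in both clones. None of 9 myeloid or 6 stromal markers passed in both clones. The part of these shifts in the results on the 8 genes was not tested. The RNA came from a single cell line, and in bulk RNA fewer cells expressing a gene and less RNA per cell cannot be told apart.

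JAK2, CD274, PDCD1LG2, PLGRKT and RIC1 were lower in both knockout clones, with fold changes from -1.26 for RIC1 to -3.47 for PDCD1LG2, both in g3_4. ERMP1 passed in g2_1 and not in g3_4, and the difference between the clones did not pass for it. Of all transcript clusters, 6.97% were lower in both clones. Of the 8 genes, 6 fell in g2_1, where 8.06% of all transcript clusters fell. In g3_4, 5 fell, against 8.16% of all, and with the clones averaged 6 fell, against 9.83% of all. None rose, where 6.19%, 6.12% and 8.13% of all transcript clusters rose in g2_1, in g3_4 and with the clones averaged. The median fold change of the 8 genes was -1.53 with the clones averaged, and that of all transcript clusters was 0.04.

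**Figure D1:**
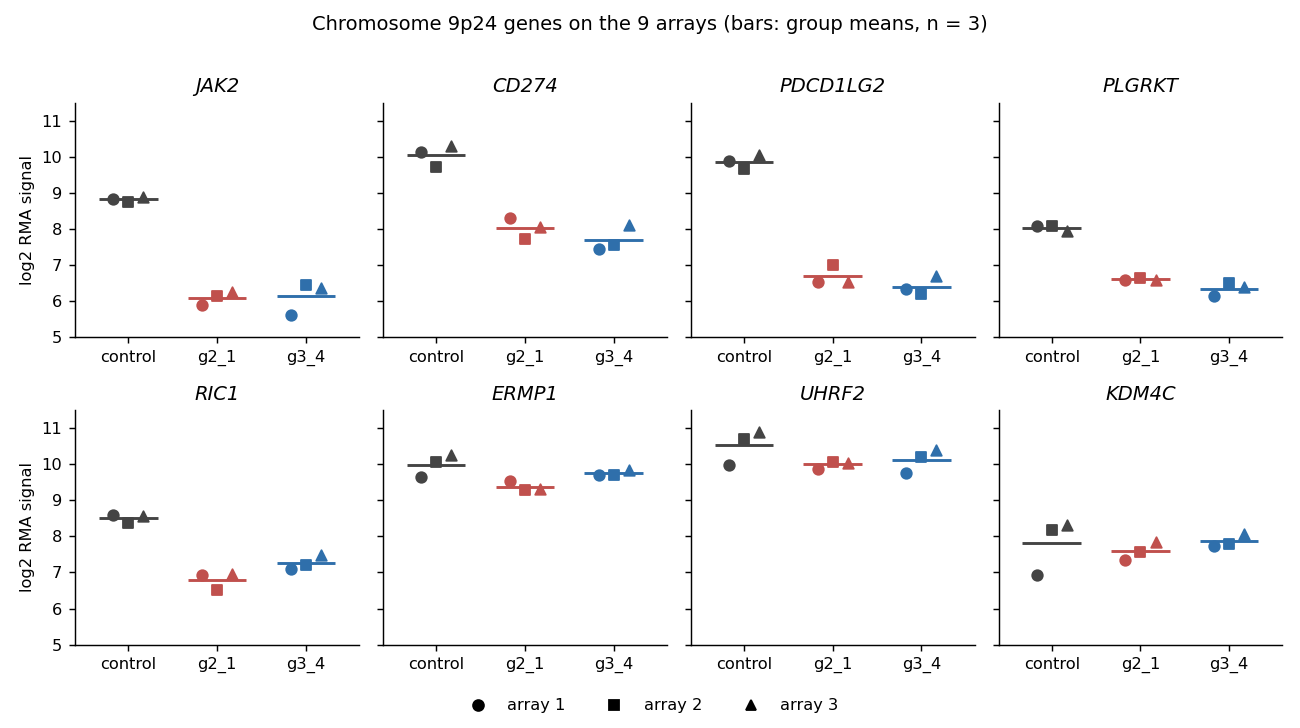
Log2 RMA signal (vertical axis) of the 8 genes on each of the 9 arrays, by group, with a symbol for each array number and a bar at the mean of 3 arrays. For JAK2, CD274, PDCD1LG2, PLGRKT and RIC1 the 6 knockout arrays lie below the 3 control arrays, while for ERMP1, UHRF2 and KDM4C control array 1 lies among or below the knockout arrays.

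JAK2 was at 8.82, 8.76 and 8.88 on control arrays 1, 2 and 3. It was at 5.90, 6.13 and 6.25 in g2_1 and at 5.62, 6.44 and 6.37 in g3_4. No knockout array came near a control array, and the arrays of g3_4 were the most spread. JAK2 had a fold change of -2.73 ± 0.19 (SE) in g2_1 (limma adjusted p = 3.8e-06) and -2.68 ± 0.19 in g3_4 (limma adjusted p = 4.3e-06). With the clones averaged JAK2 was 6.51-fold lower (fold change -2.70 ± 0.17, limma adjusted p = 9.4e-07).

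The ligand gene CD274 was at 10.14, 9.73 and 10.30 in control cells. It was at 8.30, 7.73 and 8.05 in g2_1 and at 7.43, 7.55 and 8.10 in g3_4. The control arrays did not overlap with those of either clone, and g2_1 array 1 was the highest of the knockout arrays. The change of CD274 was -2.03 ± 0.21 in g2_1 (limma adjusted p = 7.8e-05) and -2.36 ± 0.21 in g3_4 (limma adjusted p = 2.5e-05), which is 4.58-fold lower with the clones averaged.

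PDCD1LG2, the gene of PD-L2, fell the most of the 8. Its values were 9.89, 9.67 and 10.04 in control cells. They were 6.52, 7.0 and 6.52 in g2_1 and 6.32, 6.18 and 6.69 in g3_4, so that each knockout array was below each control array. For PDCD1LG2 the fold change was -3.19 ± 0.17 in g2_1 (limma adjusted p = 4.5e-07) and -3.47 ± 0.17 in g3_4 (limma adjusted p = 2.1e-07), a 10.0-fold lower signal with the clones averaged.

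CD274 and PDCD1LG2 differed in how far they fell when compared within each array. The signal of CD274 relative to PDCD1LG2 was 1.13 higher on the 6 knockout arrays than on the 3 control arrays, with all knockout arrays above all control arrays (exact two-sided permutation test, p = 0.0119, the smallest that 84 splits allow, and 0.0357 after Benjamini-Hochberg adjustment over 3 pairs). JAK2 relative to PDCD1LG2 was 0.63 higher in knockout cells (exact permutation p = 0.0357, adjusted 0.0536), which did not pass. JAK2 relative to CD274 differed by -0.50 (exact permutation p = 0.119, adjusted 0.119), with the groups overlapping. These splits treat the 6 knockout arrays as independent, although they come from 2 clones.

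The sequences before the gene starts are shown for JAK2 and CD274, which fell, and KDM4C, which did not pass. CD274 and KDM4C were the genes whose windows held a match. PLGRKT and RIC1 also fell, held none and are not shown. STAT and IRF factors can act downstream of JAK2, and whether they act on these genes here was not tested. They are the 250 bases up to the start, 5′ to 3′ on the gene's strand, from RefSeq (GRCh38.p14), with matches to the motifs searched in capitals. A window was found for 7 of the 8 genes, 10 windows in all because JAK2 has 4 starts, of which the outermost is shown. PDCD1LG2 had none in the table.
JAK2, chr9:4984140-4984389, plus strand: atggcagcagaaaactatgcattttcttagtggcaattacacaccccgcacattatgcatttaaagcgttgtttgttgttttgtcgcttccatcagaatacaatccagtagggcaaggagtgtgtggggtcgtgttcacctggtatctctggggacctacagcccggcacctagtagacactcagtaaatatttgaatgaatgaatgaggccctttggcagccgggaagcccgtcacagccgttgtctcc
CD274, chr9:5450292-5450541, plus strand: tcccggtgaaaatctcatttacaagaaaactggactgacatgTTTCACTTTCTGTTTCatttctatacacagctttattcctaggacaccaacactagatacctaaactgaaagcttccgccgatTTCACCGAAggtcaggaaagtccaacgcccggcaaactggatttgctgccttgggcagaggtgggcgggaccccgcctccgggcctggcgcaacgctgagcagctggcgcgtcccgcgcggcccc
KDM4C, chr9:6757723-6757972, plus strand: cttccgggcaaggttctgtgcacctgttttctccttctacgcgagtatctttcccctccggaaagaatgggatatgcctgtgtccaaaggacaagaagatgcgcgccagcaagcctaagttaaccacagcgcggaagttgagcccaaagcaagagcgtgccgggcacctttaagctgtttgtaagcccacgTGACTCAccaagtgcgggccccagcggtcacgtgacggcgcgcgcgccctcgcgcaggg
Both strands were searched for the STAT motifs TTCNNNGAA and the STAT6 form with 4 free bases (TTC and GAA with 4 bases between), the IRF motif (GAAA and GAAA with 2 bases between), the AP-1 motif TGANTCA and the kappaB motif. The CD274 window held 1 match to TTCNNNGAA, 116 bases before the start, and 2 overlapping matches to the IRF motif on the other strand, 198 and 192 bases before the start. Of all 35116 RefSeq windows of this length, 6.57% held TTCNNNGAA and 3.02% held the IRF motif. The KDM4C window held 1 match to TGANTCA, 52 bases before the start, a motif found in 6.57% of all windows. The windows of JAK2, PLGRKT, RIC1, ERMP1 and UHRF2 held none of these letters. The STAT6 form occurred in 5.38% of all windows and the kappaB motif in 9.96%. A match is a description of these letters and not evidence of binding.

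PLGRKT and RIC1 lie on either side of the PD-1 ligand genes, in the measured order PLGRKT, CD274, PDCD1LG2, RIC1. PLGRKT encodes a plasminogen receptor of the cell surface. The control arrays were at 8.08, 8.07 and 7.94, those of g2_1 at 6.57, 6.64 and 6.58 and those of g3_4 at 6.13, 6.51 and 6.38. No knockout array reached a control array, and the arrays of g2_1 lay close together. PLGRKT had a fold change of -1.43 ± 0.11 in g2_1 (limma adjusted p = 8.3e-06) and -1.69 ± 0.11 in g3_4 (limma adjusted p = 2.2e-06).

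RIC1 encodes a subunit of the exchange factor that activates the Golgi GTPase RAB6. Its values were 8.61, 8.38 and 8.58 in control cells, 6.92, 6.50 and 6.95 in g2_1 and 7.09, 7.20 and 7.49 in g3_4. All knockout arrays were below all control arrays, and the arrays of g2_1 were below those of g3_4. RIC1 had a fold change of -1.73 ± 0.15 in g2_1 (limma adjusted p = 1.9e-05) and -1.26 ± 0.15 in g3_4 (limma adjusted p = 2.1e-04). With the clones averaged, PLGRKT was 2.95-fold and RIC1 2.83-fold lower. Across all transcript clusters, 10.6% had all knockout arrays below all control arrays. Of the 8 genes, these 2 and the 3 lead genes did. When variances were estimated for each gene alone and allowed to differ between groups, these 5 passed with the clones averaged (adjusted p 0.00036 to 0.0128). In the single clones under that test none of the 8 passed in g2_1 (adjusted p 0.0519 to 0.859), and in g3_4 only PDCD1LG2 passed (adjusted p = 0.0435). The share of all transcript clusters passing under that test is not given here.

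ERMP1, UHRF2 and KDM4C lie further along, with smaller differences. ERMP1, a metallopeptidase of the endoplasmic reticulum, was at 9.64, 10.07 and 10.26 in control cells, at 9.53, 9.30 and 9.31 in g2_1 and at 9.72, 9.70 and 9.84 in g3_4. Control array 1 lay below the arrays of g3_4. ERMP1 fell by 0.61 in g2_1 (limma adjusted p = 0.0187), a call lost when only g2_1 and control were fitted (limma adjusted p = 0.0515) and without any 1 of g2_1 arrays 2 and 3 and control arrays 2 and 3 (limma adjusted p 0.0568 to 0.0762). In g3_4 its fold change was -0.24 (limma adjusted p = 0.374), and with the clones averaged it fell by 0.42 (limma adjusted p = 0.0443). The averaged call was lost without any 1 of g2_1 arrays 2 and 3, of the 3 arrays of g3_4, or of control arrays 2 and 3 (limma adjusted p 0.0620 to 0.179). It was also lost after centring of the arrays (fold change -0.31, limma adjusted p = 0.103) and with unequal variances (adjusted p = 0.405).

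UHRF2 encodes a ubiquitin ligase with domains that read modified DNA and histones. It was at 9.99, 10.72 and 10.90 in control cells, at 9.88, 10.07 and 10.05 in g2_1 and at 9.76, 10.20 and 10.39 in g3_4. Control array 1 lay among the knockout arrays, and control arrays 2 and 3 above them all. The fold change was -0.54 ± 0.22 in g2_1 (limma adjusted p = 0.156) and -0.42 ± 0.22 in g3_4 (limma adjusted p = 0.281). With array weights UHRF2 passed in g2_1 (-0.68, limma adjusted p = 0.0150) and with the clones averaged (-0.60, limma adjusted p = 0.0131).

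KDM4C encodes a histone H3 lysine 9 demethylase. Its values were 6.94, 8.19 and 8.31 in control cells, 7.36, 7.57 and 7.86 in g2_1 and 7.74, 7.80 and 8.06 in g3_4. Control array 1 was the lowest of all 9 arrays and control arrays 2 and 3 were the highest. The fold change was -0.22 ± 0.30 in g2_1 (limma adjusted p = 0.735) and 0.05 ± 0.30 in g3_4 (limma adjusted p = 0.942), and its SE was the largest of the 8.

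The calls on these 3 genes depended on control array 1, which had the lowest control value for each. Without it UHRF2 passed with the clones averaged (fold change -0.75, limma adjusted p = 0.00469), as did KDM4C (-0.52, limma adjusted p = 0.0224), and ERMP1 passed in g3_4 (-0.41, limma adjusted p = 0.0345). All 8 genes then passed as lower in g2_1 and with the clones averaged, and 7 in g3_4. With array 1 of every group left out, 8, 6 and 8 genes passed as lower in g2_1, in g3_4 and with the clones averaged. The shares of all transcript clusters that passed in these fits are not given here, so the counts stand without a background. Compared array number by array number, g2_1 minus control for KDM4C was 0.42 on arrays 1, -0.62 on arrays 2 and -0.45 on arrays 3. Arrays 1 also had the higher RNA integrity number in every group; its part in these values was not tested.

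For none of the 8 genes did the difference between the clones pass after adjustment (limma, g2_1 minus g3_4), where 0.0526% of all transcript clusters passed. At an unadjusted p under 0.05 PLGRKT, RIC1 and ERMP1 did, with RIC1 at -0.47 ± 0.15 (limma adjusted p = 0.735), PLGRKT at 0.26 ± 0.11 and ERMP1 at -0.37 ± 0.15. RIC1 was lower in g2_1 than in g3_4 on all 3 array numbers, by -0.17, -0.70 and -0.54. ERMP1 (-0.19, -0.40 and -0.53) and KDM4C (-0.38, -0.23 and -0.20) were also lower in g2_1 on all 3. PLGRKT was higher in g2_1 on all 3, by 0.44, 0.13 and 0.20. With the array number as a block, 0 passed after adjustment and the lowest adjusted p was 0.328. With unequal variances none passed.

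Between JAK2 and KDM4C the arrays measured 18 genes, 10 of them outside the 8. INSL6, INSL4, RLN2 and RLN1, which encode hormones of the insulin and relaxin family, lie between JAK2 and PLGRKT. Their control means were 3.87, 4.28, 4.16 and 4.36, all under the first quartile of the value table of 4.64, and their averaged fold changes were 0.10, 0.20, 0.03 and 0.03. MLANA, IL33 and TPD52L3, with control means of 4.65, 4.11 and 4.43, had fold changes of 0.06, 0.01 and 0.03. RMA compresses differences at such levels.

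The other 3 genes of the stretch had mean levels at or above the median level of the table. RANBP6, an importin-like protein, had a control mean of 8.09 ± 0.08 (SD, n = 3) and fell by 0.85 in g2_1 (limma adjusted p = 0.00178) and by 0.71 in g3_4 (limma adjusted p = 0.00550). BRD10, a bromodomain protein, fell in g2_1 by 0.74 (limma adjusted p = 0.0322) and was at -0.55 in g3_4 (limma adjusted p = 0.103). GLDC, the glycine decarboxylase of mitochondria, was at -0.77 and -0.69 (limma adjusted p = 0.149 and 0.200).

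Lower values were not confined to these genes. Of the genes outside JAK2 to KDM4C but on the same side of PAX5, 69 were at or above the median level of the table (6.2), and 45 of them (65.2%) fell in both clones while 1 rose. The level is the mean over all 9 arrays, so genes with a high signal only in control cells or only in knockout cells can enter. At all levels 57 of 154 (37%) fell and 1 rose, with a median averaged fold change of -0.17. Over all named genes, 7.45% fell and 4.86% rose in both clones, and at or above the median level 8.98% fell and 8.78% rose. Before JAK2, 6 of 11 such genes fell in both clones, with a median averaged fold change of -0.55. Between KDM4C and PAX5, 39 of 58 fell, with a median of -0.79. Beyond PAX5, on the rest of the chromosome, 48 of 282 (17%) fell and 29 rose, with a median of -0.01. With centring 36 of the 58 and 43 of the 282 fell, and the share over all named genes after centring is not given here. The limit at PAX5 is a landmark and not a measured edge, since falls continued for some genes past it.

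Array by array, the median level of the 72 genes at or above that level before PAX5, without the 8, was 8.96 to 9.02 on the control arrays. It was 8.13 to 8.18 in g2_1 and 8.23 to 8.27 in g3_4, with no overlap. Over the 282 genes past PAX5 the medians were 8.20 to 8.32 on the control arrays and 8.13 to 8.23 on the knockout arrays, which overlap.

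**Figure D2:**
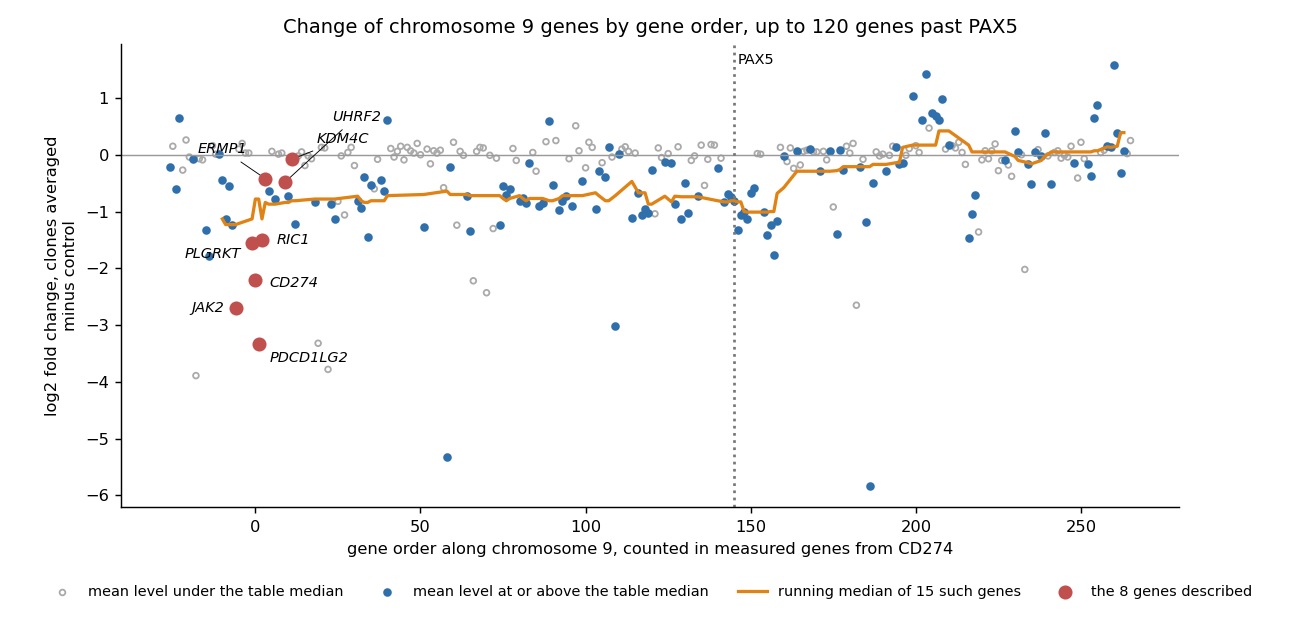
Averaged log2 fold change (knockout minus control, vertical axis) of chromosome 9 genes against their order, counted in measured genes from CD274, with a running median of 15 genes at or above the median level and a dotted line at PAX5. JAK2, CD274 and PDCD1LG2 (-2.70, -2.20 and -3.33) lie below the running median, which stays under 0 up to PAX5.

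Other genes of this arm fell too, some further than the lead genes. Before JAK2 these were SMARCA2, a chromatin remodelling ATPase (averaged fold change -3.89), RFX3, a transcription factor of ciliated cells (-1.78), and PUM3 (-1.32). Between KDM4C and PAX5 they were CDKN2A, the cell cycle inhibitor gene (-5.32), TTC39B (-3.78) and ZDHHC21, a palmitoyl transferase (-3.32). CDKN2A was at 10.47 ± 0.15 (SD, n = 3) in control cells and 5.15 in both clones. AQP3, a water and glycerol channel, rose in both clones (0.59). Beyond PAX5 the largest falls were APBA1 (-5.84), NEK6 (-2.97) and PIP5K1B (-2.65), and the largest rises CTSV (1.76), ROR2 (1.58) and FUT7 (1.52). All named in this paragraph passed in both clones (limma adjusted p 6.1e-09 to 0.0147).

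To set the 8 genes beside their neighbours within each array, the median log2 value of up to 25 genes at or above the median level on each side was subtracted, and the same was done for 17652 genes before the fit. Only the gene itself was left out of its neighbours, so the rest of the 8 genes were among them. JAK2, CD274 and PDCD1LG2 thus entered the median subtracted from ERMP1, UHRF2 and KDM4C. The neighbours' median changed by -1.0 to -1.14. PDCD1LG2 was then at -2.24 ± 0.17 with the clones averaged (limma adjusted p = 9.4e-07), JAK2 at -1.61 ± 0.18 (limma adjusted p = 4.0e-05) and CD274 at -1.15 ± 0.20 (limma adjusted p = 0.00106). The lead genes thus stayed lower than their neighbourhood by these amounts. PLGRKT was at -0.42 ± 0.11 (limma adjusted p = 0.0166) and RIC1 at -0.39 ± 0.13 (limma adjusted p = 0.0510). On the other side ERMP1 (0.61, limma adjusted p = 0.00219), UHRF2 (0.53, limma adjusted p = 0.0423) and KDM4C (0.94, limma adjusted p = 0.0135) were higher relative to their neighbours. That makes 4 of 8 lower and 3 higher, where 10.8% of all genes so treated were lower and 12.4% higher. In g2_1 alone 4 were lower and 1 higher, against 8.78% and 9.06% of all genes, and in g3_4 alone 4 lower and 2 higher, against 8.32% and 9.35%. JAK2, CD274 and PDCD1LG2 were lower and ERMP1 higher in each clone. RIC1 was lower in g2_1 only by this threshold (limma adjusted p = 0.0166 and 0.478), PLGRKT in g3_4 (0.171 and 0.00917), and KDM4C was higher in g3_4 (0.0588 and 0.0201). UHRF2 passed in neither clone (limma adjusted p = 0.102 and 0.0741).

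The size of the subtraction depends on how neighbours are summed. When each neighbour was first centred on its own mean, an alternative chosen after seeing the data, the neighbours' change was -0.77 to -0.84. PDCD1LG2 was then at -2.53, JAK2 at -1.93, CD274 at -1.40, PLGRKT at -0.79 and RIC1 at -0.70, all passing (limma adjusted p 5.5e-07 to 0.00337), where 11% of all genes so treated were lower and 8.37% higher. ERMP1 stayed higher (0.41, limma adjusted p = 0.0404), while UHRF2 (0.32, limma adjusted p = 0.239) and KDM4C (0.72, limma adjusted p = 0.0665) did not pass. With neighbours of any level, CD274 no longer passed (-0.45, limma adjusted p = 0.188) and PLGRKT and RIC1 changed sign (0.26 and 0.38), but JAK2 and PDCD1LG2 passed. With unequal variances JAK2 and PDCD1LG2 alone passed (adjusted p = 0.00275 and 0.00295). UHRF2 lost its call without any 1 of g2_1 arrays 2 and 3, g3_4 arrays 2 and 3 and control arrays 1 and 2 (limma adjusted p 0.0783 to 0.149), and PLGRKT without control array 2 (limma adjusted p = 0.0503).

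**Figure D3:**
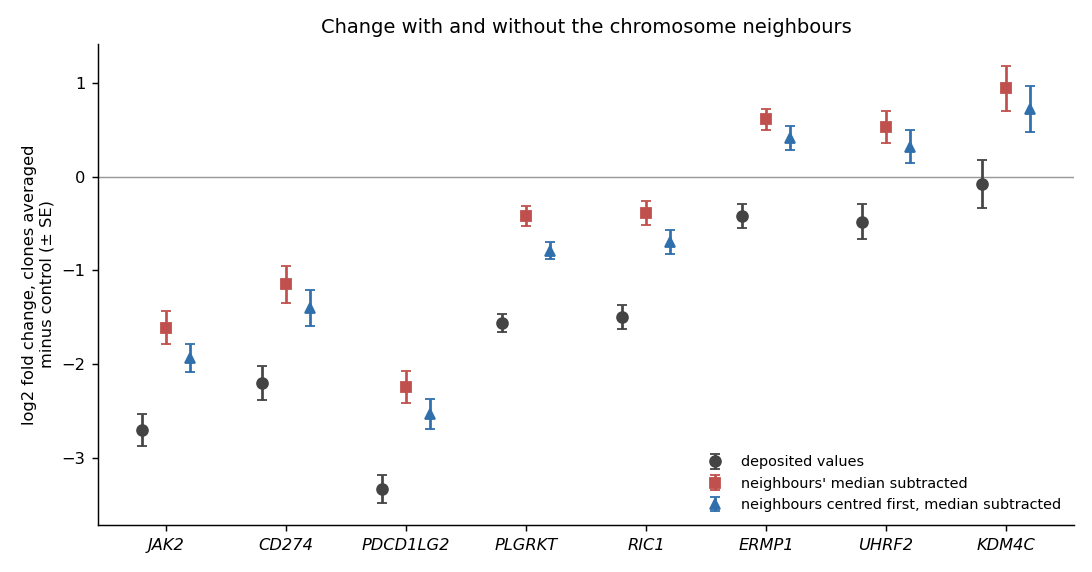
Averaged log2 fold change (knockout minus control, ± SE of the fit, 9 arrays) of the 8 genes as deposited, after subtraction of the neighbours' median, and with neighbours centred first. PDCD1LG2, JAK2 and CD274 stay below 0 in all 3 forms (-3.33, -2.24 and -2.53 for PDCD1LG2), and ERMP1 moves from -0.42 to 0.61 and 0.41.

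The partners of JAK2 moved in both directions. For reference in this and the later lists, 7.45% of all named genes fell and 4.86% rose in both clones. The same shares after centring, with the block or without control array 1 are not given here. Centring raised the median fold change of all transcript clusters by 0.11, so rises gained after it have no background beside them. Of the other JAK kinases none passed in both clones. JAK1 had an averaged fold change of 0.37 (limma adjusted p = 0.0151), JAK3 of 0.37 (limma adjusted p = 0.0156) and TYK2 of 0.10 (limma adjusted p = 0.545). After centring of the arrays JAK1 and JAK3 rose in both clones. Of the 7 STAT genes 5 are analysed here. STAT6, which carries signals of IL-4 and IL-13, fell (-1.03 ± 0.16, limma adjusted p = 0.00105), from 10.01 ± 0.41 (SD, n = 3) in control cells to 9.03 ± 0.12 and 8.93 ± 0.20. STAT5B rose (0.57, limma adjusted p = 0.0123), a call in g3_4 (limma adjusted p = 0.0489) that was lost without control array 1. STAT4 (0.93) passed in g3_4 (limma adjusted p = 0.0114) and not in g2_1 (limma adjusted p = 0.0817), and rose in both clones after centring and with the array number as a block. STAT5A (0.20) and STAT3 (0.17) did not pass in either clone.

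Receptor chains that signal through JAK2 included large changes in both directions. Of 18 measured, 4 fell and 2 rose in both clones, with a median of 0.03. IL13RA1, a chain of the IL-13 receptor, fell by 5.48 on the averaged log2 scale (limma adjusted p = 8.4e-10), from 9.69 ± 0.38 (SD, n = 3) to 4.22 and 4.19, under the first quartile of the table. IL5RA, the IL-5 receptor chain, fell by 5.25 (limma adjusted p = 9.8e-10). LIFR, the receptor of leukaemia inhibitory factor, rose by 1.66 (limma adjusted p = 5.3e-07) and OSMR, the oncostatin M receptor, by 1.33 (limma adjusted p = 1.5e-04). CSF2RB and IL4R were the other 2 that fell.

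Among 19 inhibitors of JAK-STAT signalling 3 rose and 2 fell in both clones. CISH (0.88) and SOCS3 (0.79), feedback inhibitors that STAT factors induce, and SOCS2 rose, while SOCS6 (-2.02) and SOCS4 (-0.50) fell. After centring SOCS4 lost its call and SOCS1 and PIAS4 gained one, so that 5 rose and 1 fell. Of 24 genes known as JAK-STAT targets, 10 fell and 3 rose, with a median of -0.44. FCER2, which encodes the IgE receptor CD23, fell by 5.47 (limma adjusted p = 3.2e-10) and CXCL10, an interferon-induced chemokine, by 5.36 (limma adjusted p = 4.7e-07). PIM1, a kinase that STAT factors induce, rose by 1.25 (limma adjusted p = 7.7e-05) and GBP2, an interferon-induced GTPase, by 1.08 (limma adjusted p = 0.00549). After centring, 8 targets fell and 4 rose.

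**Figure D4:**
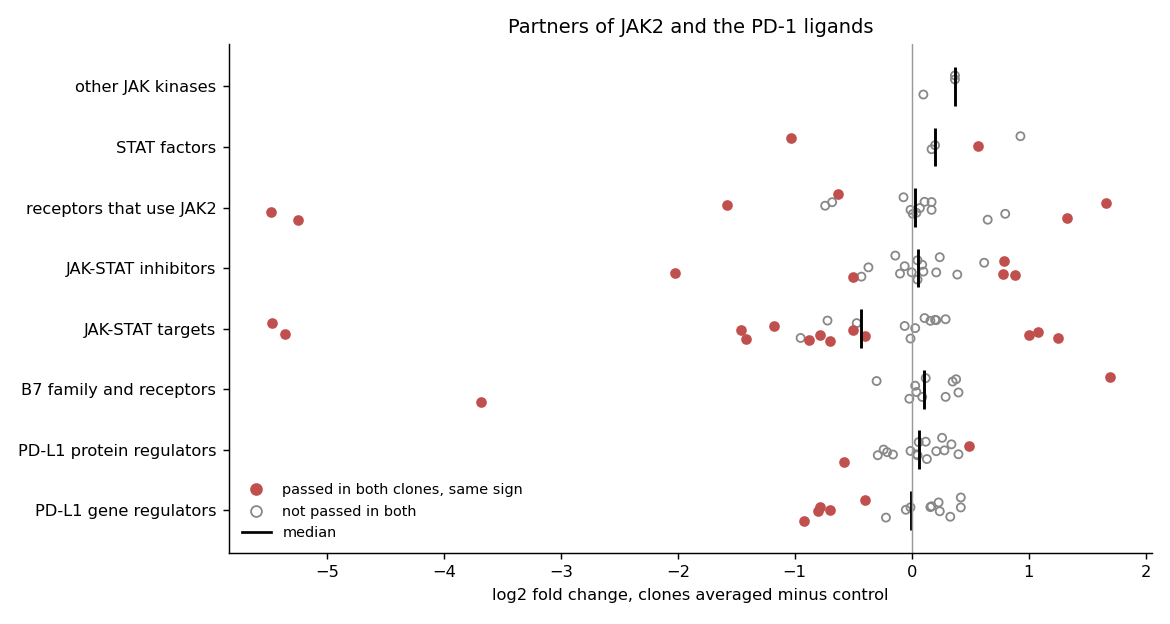
Averaged log2 fold change (knockout minus control, horizontal axis) of each measured gene in 8 lists of partners of JAK2 and the PD-1 ligands. Filled points passed in both clones with the same sign, open points did not, and the bar is the list's median, from -0.44 for the JAK-STAT targets to 0.36 for the other JAK kinases; vertical position within a list has no meaning.

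Relatives and regulators of the PD-1 ligands were grouped into 3 lists. The shares over all named genes were again 7.45% fallen and 4.86% risen in both clones. Of 12 other genes of the B7 family and its receptors, 1 fell and 1 rose, with a median of 0.11, and PDCD1 itself is not analysed here. CD80 encodes a costimulatory ligand that binds CD28, CTLA4 and PD-L1. It averaged 9.54 ± 0.45 (SD, n = 3) in control cells, against 5.92 ± 0.06 in clone g2_1 and 5.79 ± 0.26 in clone g3_4. Its averaged fold change was -3.68 ± 0.17 (limma adjusted p = 1.1e-07). HHLA2, another B7 relative, rose by 1.70 (limma adjusted p = 3.1e-04). CD86, the other ligand of CD28, was at 10.85 in control cells with an averaged fold change of 0.29 (limma adjusted p = 0.105).

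Fold changes were smaller for the rest of that family. CD276 (0.40) and VTCN1 (0.38) passed in 1 clone each and in both after centring. RGMB was at 0.35, ICOSLG at 0.12, CTLA4 at 0.09, CD28 at 0.04, ICOS at 0.03, VSIR at -0.02 and NCR3LG1 at -0.30, and none of these passed in either clone. VTCN1, ICOS, CD28 and CTLA4 had control means of 4.04, 4.32, 3.88 and 4.23, under the first quartile of the table.

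Of 17 genes that act on the PD-L1 protein, HIP1R, which routes PD-L1 to lysosomes, rose by 0.49 (limma adjusted p = 0.00547) and CDK4, which acts on PD-L1 turnover, fell by 0.58 (limma adjusted p = 0.00125). After centring 4 of these genes rose. Of 15 genes that regulate PD-L1 transcription, 5 fell and none rose in both clones, with a median of -0.01. NFKB1, which encodes an NF-kB subunit and its precursor, fell by 0.92 (limma adjusted p = 3.7e-04) and IRF2BP2, a corepressor, by 0.80 (limma adjusted p = 6.8e-04). IRF1, BATF and BATF3 were the other 3. After centring 4 fell and 1 rose.

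Partners of the outer genes were tested in the same way, beside the same shares of 7.45% fallen and 4.86% risen over all named genes. RGP1, the other subunit of the RIC1 complex, lies on the same arm of chromosome 9 before PAX5 and fell by 1.02 (limma adjusted p = 6.5e-05). RAB6B fell by 2.10 (limma adjusted p = 0.00113), while RAB6A (0.04) and RAB33B (-0.07) did not pass. Of 14 genes for enzymes and binding proteins of histone H3 lysine 9 beside KDM4C, only KDM3B fell in both clones (-0.38). That call was lost after centring and without control array 1. None of 9 genes of the UHRF and DNA methylation group passed in both clones, while with the array number as a block 1 did, and without control array 1, 2 did. Of 8 genes for peptidases or peptidase complex subunits of the endoplasmic reticulum, ERAP2 fell by 3.57 (limma adjusted p = 4.5e-06) and SPCS2 rose by 0.39. Of 8 genes of the plasminogen system PLAU, the urokinase gene, fell by 0.95 and ANXA2, a plasminogen-binding annexin, rose by 0.47.

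Genes whose pattern over the 9 arrays was most like the mean of JAK2, CD274 and PDCD1LG2 were ranked by root mean square difference, each gene taken relative to its own control mean. The first 6 of 17684 genes were OGFRL1 (0.158 log2 units), MCOLN2 (0.205), KCNN1 (0.224), SSBP2 (0.225), ABCA13 (0.252) and PRRT3 (0.263). None lies on chromosome 9. Their averaged fold changes were -2.75, -2.62, -2.70, -2.91, -2.79 and -2.63. By the same measure JAK2 differed from the mean of the 3 by 0.194, CD274 by 0.478, PDCD1LG2 by 0.505, PLGRKT by 0.978 and RIC1 by 1.06. JAK2, CD274 and PDCD1LG2 make up that mean, which draws it towards them, while PLGRKT and RIC1 are not in it. All arrays share the 3 control samples and the clones, so this likeness is a description of size and not of shared control.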

How the data were processed

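The values are log2 signals deposited by the authors, which per the submitters' processing notes come from RMA in version 4.0 of Transcriptome Analysis Console. The genome build is not given in the sources used here. The table holds no detection flags and the scanner files were not used here, so no signal can be called above or below background, and RMA compresses differences near the floor. Precision is limited by the 9 arrays.

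Of 21448 rows, 20893 were tested and 555 marked as unmapped were left out. A symbol was found for 17705 rows, several for 0 and none for 3188. RefSeq (GRCh38.p14) gave gene order, gene names and promoter sequences only. Its chromosome differed from that of the row ID for 14 rows. Where a symbol had several rows, the row with the highest mean was used.

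All 9 arrays entered a two-sided limma fit (version 3.58.1, R 4.3.3) with 1 coefficient per group, then eBayes, with Benjamini-Hochberg adjustment over all rows fitted. The neighbour-subtracted values were fitted in the same way. The script was tested on simulated data with known changes. The clones are compared with the same 3 control arrays, so their comparisons are not independent. Array pairs correlated at 0.9526 to 0.9964 and no pair held the same values.

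Same-numbered arrays of the clones deviated together (correlations of deviations from the group means 0.435, 0.191 and 0.310). With the control arrays g2_1 gave 0.285, 0.0426 and 0.183, and g3_4 gave 0.298, 0.0565 and 0.257. All were positive, the ranges overlap, and arrays 2 were lowest in each pair of groups. No cutoff was set, so these values do not settle whether the array number pairs the groups. A block for it was fitted only as an alternative.

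The genes described and the lists of partners were chosen with earlier results of these data known. Named are the 8 genes, LTA, every measured gene between JAK2 and KDM4C, up to 2 risen and 2 fallen genes of each list (each further JAK, STAT, B7 and RIC1 partner as values), the 6 genes closest in pattern, and up to 3 genes of each chromosome 9 segment with the largest change in each direction. Genes named outside this rule were chosen after their values were seen: CD3D, CD3E, CD3G, CSF2RB, IL4R, SOCS1, SOCS2, PIAS4, IRF1, BATF and BATF3. Alternatives were centring, a block for the array number, subsets of arrays, array weights, unequal variances, a level filter and other neighbours.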

Additional observations from a re-analysis of the deposited data

How the results depend on the processing

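JAK2, CD274, PDCD1LG2, PLGRKT and RIC1 passed as lower in both clones under every alternative fitted with limma on the deposited or centred values, and without any 1 array. With unequal variances 0 genes passed as lower in g2_1 and 1 in g3_4 (5 with the clones averaged), and after subtraction of neighbours 2 were lower and 0 higher. Without each array in turn the genes lower numbered 5 to 8 in g2_1, 5 to 7 in g3_4 and 5 to 8 with the clones averaged, and after subtraction of neighbours 3 to 5 lower and 2 to 3 higher. For these alternatives the shares of all rows that passed are not given here. KDM4C had no stable sign: its fold change in g3_4 was -0.22 with array weights and -0.32 without replicate 1 of every group, the averaged one was 0.03 after centring, and without each array in turn it ranged from -0.65 to 0.03 in g2_1, from -0.38 to 0.30 in g3_4 and from -0.52 to 0.17 averaged. The difference between the clones ranged from -0.31 to 0.10 for JAK2 and from -0.29 to 0.02 for UHRF2.

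With neighbours of any level 2 genes were lower, and PLGRKT (0.26) and RIC1 (0.38) changed sign. With neighbours centred first 1 gene was higher. Segment medians over all levels moved on centring to -0.04 before JAK2, -0.06 from KDM4C to PAX5 and 0.12 past PAX5. On the deposited values, restricted to genes at or above the median level, the medians were -0.55 before JAK2, -0.78 from JAK2 to KDM4C, -0.79 from there to PAX5 and -0.01 past PAX5. In the 100 bases next to the start 1 motif match remained. Each gene had 1 row, so the lowest-mean row gave no other value. The causes were not tested.

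With the array number as a replicate block, UHRF2 passed in g2_1 (-0.54, limma adjusted p = 0.0231) and averaged (-0.48, limma adjusted p = 0.0168), as did RIC1 after subtraction of neighbours (-0.39, limma adjusted p = 0.0159). The block changed no other call on the 8 genes.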
